A study of Homo sapiens with 8 samples.

Results

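At 3871 genomic regions, a peak of the transcription factor ATF4 was listed in every library of the leukaemia line Nalm6, with and without L-asparaginase, while in the second line, SUPB15, it was listed in both drug-treated libraries and in neither untreated one. The regions were found by merging the peaks of all 8 deposited lists that share at least 1 bp, which gave 132657 regions, and keeping those with this pattern. They made up 2.92% of the merged regions (95% Wilson interval 2.83 to 3.01, which like every interval on a share below covers counting error over regions only). The pattern was chosen from the lists themselves, so the basal peaks in Nalm6 and the gain in SUPB15 are a description and carry no test. What the choice leaves free is how these sites behaved in Nalm6 when the drug was added, since a peak was required there in all 4 libraries.

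Chromatin was immunoprecipitated with 5 ug of a rabbit monoclonal antibody against ATF4 and sequenced. The 4 groups were untreated Nalm6, Nalm6 given L-asparaginase at 1 IU/ml for 2 h, untreated SUPB15, and SUPB15 given the same dose for the same time, with 2 libraries each. Both are established lines of B-precursor acute lymphoblastic leukaemia, and each stands for 1 line only. For Nalm6 the study's design speaks of independent experiments, of which 2 per condition were analysed here. For SUPB15 no label tells whether the libraries came from different cultures, and the spread between libraries may then be technical.

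ATF4 is a basic leucine zipper protein and the main transcriptional effector of the integrated stress response. When an amino acid runs short, uncharged transfer RNA activates the kinase GCN2, general translation is slowed, and the ATF4 messenger RNA is translated more. ATF4 pairs with C/EBP and related leucine zipper partners on composite elements near genes of amino acid synthesis, uptake and transfer RNA charging, and L-asparaginase, a drug used against this leukaemia, sets off the response by breaking down asparagine.

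Regions with a peak in all 4 Nalm6 lists numbered 25184, and 15.4% of them followed the pattern described (interval 14.9 to 15.8), against 12.8% of all merged regions that were gained in SUPB15 whatever their state in Nalm6. These percentages describe the choice of the regions and nothing is read from them. Of the remaining regions of constant presence in Nalm6, 9469 (37.6%) were in no SUPB15 list and 3812 (15.1%) were in all 4. A further 3978 were in the SUPB15 asparaginase list of replicate 1 only and 437 in that of replicate 2 only. The lists differ in length, from 9575 and 9586 peaks in untreated SUPB15 to 88302 and 41213 peaks after asparaginase, with 34825 to 48984 in Nalm6. Without the shorter asparaginase list of SUPB15, replicate 2, the pattern held 7853 regions, and with the 9575 strongest peaks of every list it held 208.

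The strength of a peak is given here as its summit level, the number of overlapping fragments at the summit divided by the genome-wide background of that library. A level of 1 is thus the background. Genome-wide background ran from 2.208 to 2.971 fragments in the Nalm6 libraries and from 3.899 to 4.191 in those of SUPB15, so SUPB15 was the more deeply covered line. Among the 3871 sites the median level in untreated Nalm6 was 12.5 in replicate 1 (10th to 90th percentile 6.39 to 21.5) and 14.3 in replicate 2 (7.17 to 24.4). In asparaginase-treated Nalm6 it was 18.6 (9.96 to 41.7) and 20.2 (11.2 to 46.3). In asparaginase-treated SUPB15 it was 7.87 (5.25 to 15.3) and 6.62 (4.84 to 10.7). The treated SUPB15 medians were thus below even the untreated Nalm6 medians, where the same sites were bound without the drug. This was not particular to these sites. Where all 8 lists had a peak, the treated SUPB15 medians were 16.5 and 12.6, against 20.5 and 23.3 in untreated Nalm6. The SUPB15 level varied with the site: 643 of the 3871 (16.6%) reached a −log10 q of at least 10 in both treated lists.

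**Figure D1:**
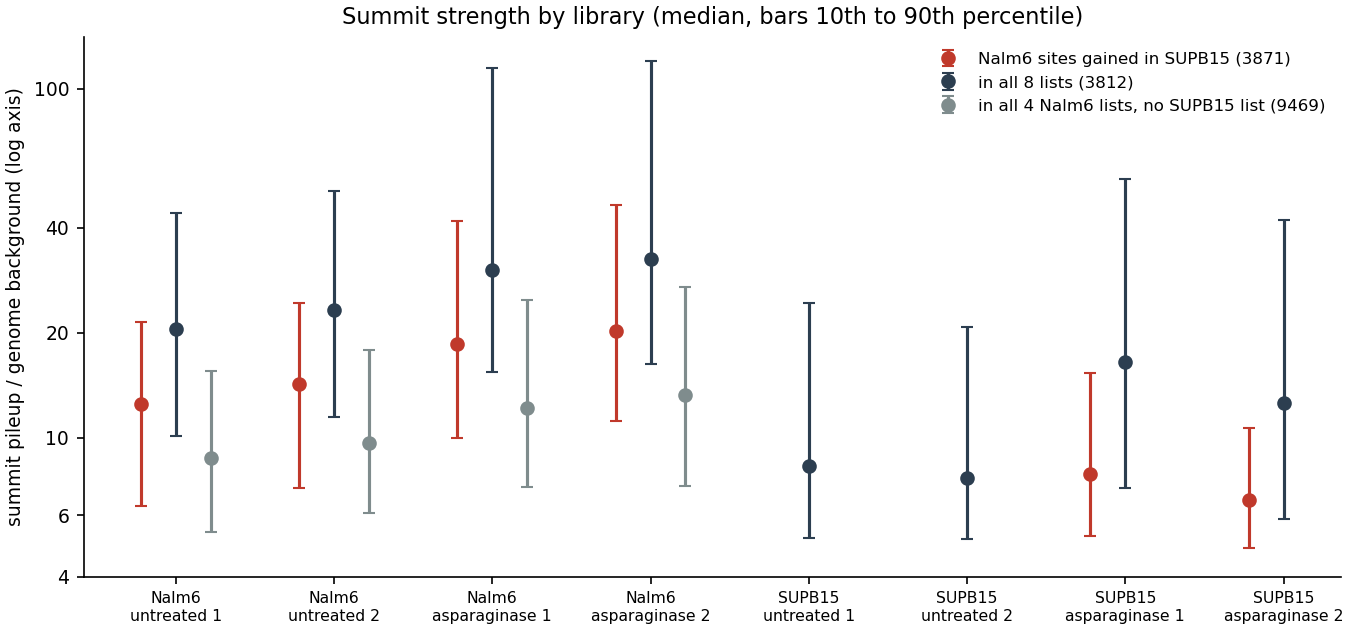
Median summit level (fragments at the summit over genome background, log axis) by library, with bars from the 10th to the 90th percentile, for the 3871 sites and for regions of constant Nalm6 presence that were in all 8 lists or in no SUPB15 list. The median of the 3871 sites lies between those of the other classes in every Nalm6 library, at 12.5 and 14.3 without the drug and 18.6 and 20.2 with it.

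The sites held a middle place among regions of constant Nalm6 presence. Where all 8 lists had a peak, the untreated Nalm6 medians were 20.5 and 23.3, and where no SUPB15 list had one they were 8.75 and 9.68. Median region width followed the same order, at 1119 bp, 999 bp for the sites described here, and 745 bp. A merged region widens with the number of lists that contribute a peak, so these widths share a source with the classes. The median span of the Nalm6 peaks alone had the same order, at 1070, 953 and 745 bp. Neighbouring sites lay a median of 115 kb apart, and 259 (6.69%) had another one within 10 kb.

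Distal chromosome 8 (from 60 Mb) and distal chromosome 1 (from 180 Mb) held 3163 of the 9609 regions that were gained in SUPB15 with no Nalm6 peak (32.9%). Only 182 of the 3871 sites with a Nalm6 peak (4.70%) lay there, against 673 of the 17755 regions that were in all 4 Nalm6 lists and no untreated SUPB15 list (3.79%). The intervals were 4.08 to 5.41 and 3.52 to 4.08. Where all 8 lists had a peak the share was 7.95%. The share at the basal Nalm6 sites was thus far below that of the other SUPB15 gains, and somewhat above that of the 17755 regions. By chromosome, the share of those 17755 regions that gained a SUPB15 peak ran from 16.2% on X to 27.5% on 13, with 21.8% over all.

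In Nalm6, asparaginase raised the level at 1247 of the 3871 sites (32.2%, interval 30.8 to 33.7), where 22.7% of all 25184 regions tested rose. The level fell, relative to the median Nalm6 region, at 316 sites (8.16%, interval 7.34 to 9.07), where 8.66% of all regions did. The remaining 2308 passed the test in neither direction. The median change was 0.11 on the log2 scale at these sites and 0 by construction over all regions. Changes were tested with limma on log2 of the fragments at the summit plus 1 over genome background, centred on the median change, with Benjamini-Hochberg adjustment over all 25184 regions at 0.05. In limma, part of the variance of each region is drawn from all regions. An SE or adjusted p below thus does not measure the spread of that site's own libraries alone.

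The split between directions rests on the centring, which takes away a general rise of 0.37 in Nalm6 levels. Without it, 1843 sites rose (47.6%, against 38.8 percent of all regions) and 13 fell (0.336%, against 0.397 percent), and the median change was 0.48. All 1247 sites called higher with centring were also higher without it. Of the 316 called lower, 13 were also lower without it and none was higher, which leaves most of them without a call. With fold enrichment over local background in place of the level, 915 sites rose (against 15.2% of all regions) and 140 fell (against 4.09%). With the replicate number as a block, 1377 rose (against 25.4%) and 535 fell (against 14.3%). Leaving out any 1 Nalm6 library gave fewer calls in both directions, at the sites and over all regions. The median change of the sites was then 0.10 to 0.12.

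The share of higher calls at the 3871 sites lay between those of the comparison classes. It was 42.3% where all 8 lists had a peak, 26.2% where 1 untreated and both treated SUPB15 lists had one, and 15.3% where no SUPB15 list had one. The gap to the regions in all 8 lists depended on the setting. Without centring the shares were 47.6% at the sites and 49.2% at those regions. They were 23.6% and 24.9% with fold enrichment, and 35.6% and 43.1% with the replicate block. Rises of at least 2-fold in Nalm6 were called at 664 sites (17.2%), where 11.8% of all regions showed one, and a fall of at least 2-fold at 1 site, where 0.0596% did. Both treated Nalm6 libraries lay above both untreated ones at 2501 sites (64.6%, against 59.3% of all regions) and below both at 245 (6.33%, against 6.46%). These classes also differ in basal level and width, whose part in these shares was not tested.

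**Figure D2:**
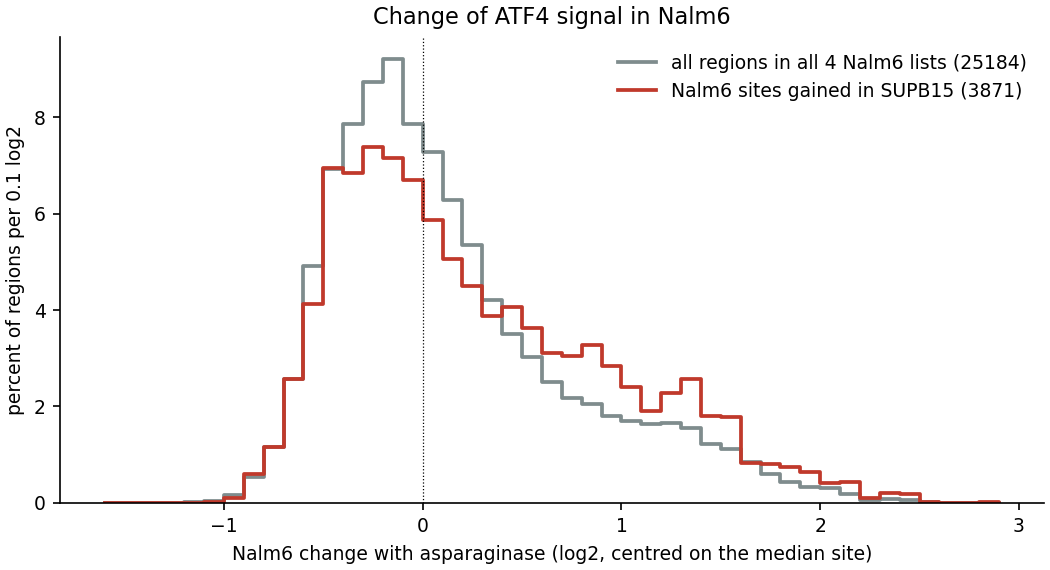
Distribution of the Nalm6 change with asparaginase (log2, centred on the median region, dotted line) as the percent of regions per step of 0.1, for the 3871 sites and for all 25184 regions in the 4 Nalm6 lists. The sites have a median of 0.11 and lie above all regions over most changes from 0.4 to 1.6.

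The sites that rose in Nalm6 were also the more strongly bound in treated SUPB15. At the 1247 sites that rose, median Nalm6 levels went from 10.4 and 12.9 without the drug to 31.2 and 34.7 with it, and the treated SUPB15 levels were 11.0 and 8.15. At the 2308 without a call, Nalm6 levels of 12.8 and 14.3 stood against 15.4 and 16.7 with the drug, and SUPB15 reached 7.40 and 6.11. The 316 lower sites had the highest basal Nalm6 levels, 19.5 and 21.5, with 15.9 and 18.0 after the drug and 7.16 and 5.86 in SUPB15. A −log10 q of at least 10 in both treated SUPB15 lists was reached by 514 of the 1247 (41.2%), by 126 of the 2308 (5.46%) and by 3 of the 316 (0.949%). The libraries of both lines were separate, but regions are not replicates of a condition, and no p is given for these contrasts.

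Across the 3871 sites, the treated SUPB15 level followed the treated Nalm6 level (Spearman's rho 0.50) and the Nalm6 change (0.45), and followed the untreated Nalm6 level only weakly (0.12). Points of these correlations are sites that share the same libraries and depths. Replicate libraries gave 0.78 in treated SUPB15, 0.91 in untreated Nalm6 and 0.93 in treated Nalm6. At the 3812 regions in all 8 lists the corresponding values were 0.76 for the treated Nalm6 level, 0.63 for the Nalm6 change and 0.33 for the untreated level, in the same order.

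The share of sites that gained a SUPB15 peak was then counted by what Nalm6 did, over the 17755 regions in all 4 Nalm6 lists and no untreated SUPB15 list. A SUPB15 peak was gained at 37.5% of the 3325 regions that rose in Nalm6 (interval 35.9 to 39.2), at 17.4% of the 13231 with no call (16.8 to 18.1) and at 26.4% of the 1199 that were lower (23.9 to 28.9). The share at regions that rose exceeded that at regions with no call by 20.1 percentage points. The difference was 8.71 points when the Nalm6 changes were not centred, and 14.2 points without SUPB15 asparaginase replicate 2.

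**Figure D3:**
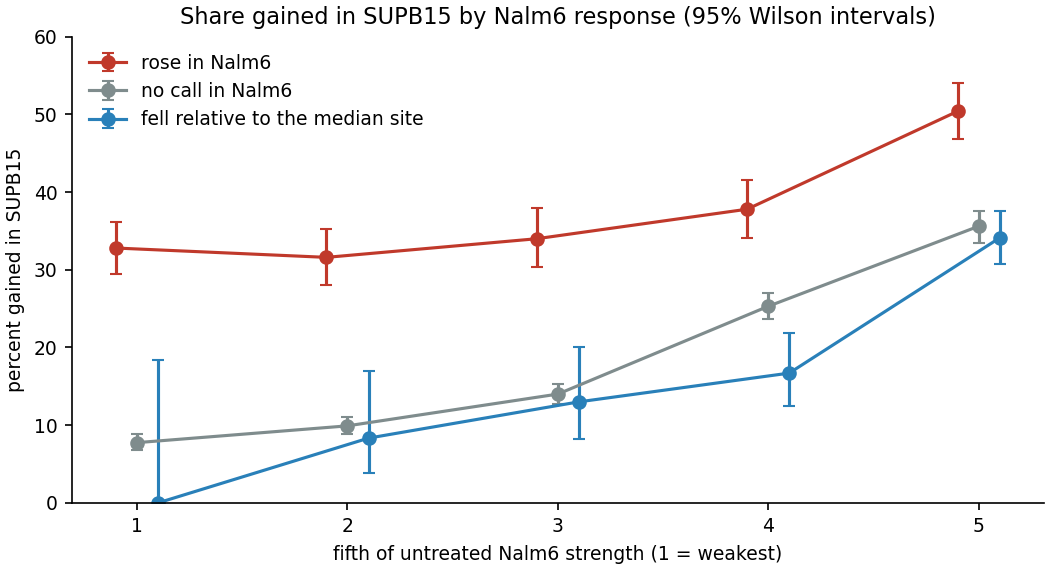
Share of regions gaining a SUPB15 peak (percent, with 95% Wilson intervals) by the Nalm6 call and by 5 bins of basal Nalm6 level, over the same 17755 regions. In the weakest bin 32.8% of the regions that rose gained a peak against 7.75% of those without a call, and in the strongest bin 50.4% against 35.6%.

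Regions that rose and regions that did not also differ in basal level, so the share was counted within 5 bins of the mean untreated Nalm6 level. In the weakest bin 32.8% of regions that rose gained a SUPB15 peak against 7.75% of those with no call. In the middle bin the shares were 34.0% and 14.0%. In the fourth bin they were 37.8% and 25.3%, and in the strongest 50.4% and 35.6%. The share was thus higher at regions that rose in each of these bins, and the gap was narrowest in the fourth. At regions called lower the share went from 0 of 17 in the weakest bin, with a Wilson upper limit of 18.4%, to 16.7% in the fourth (interval 12.5 to 21.8), below the 25.3% at regions with no call (23.7 to 27.0), and 34.1% in the strongest, close to that at regions with no call. In the second and middle bins the share at regions called lower was 8.33% and 13%, against 9.91% and 14.0% at regions with no call. The pooled share, 26.4% against 17.4%, thus has the opposite order to that in each bin. Only in the fourth bin were the intervals apart. Of the 1199 lower regions, 741 were in the strongest bin.

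Basal level and the size of the Nalm6 change gave different shapes. With 10 bins of untreated Nalm6 level, the share gaining a SUPB15 peak was 11.9% in the weakest and 41.1% in the strongest. With 10 bins of treated Nalm6 level it was 5.94% and 45.8%. With 10 bins of the Nalm6 change the share was 23.9% where the change was most negative, 14.2% at a change of 0.14 to 0.29, and 44.8% where it was 0.88 to 2.80. The share was thus lowest at regions with a change near the median and higher at both ends.

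**Figure D4:**
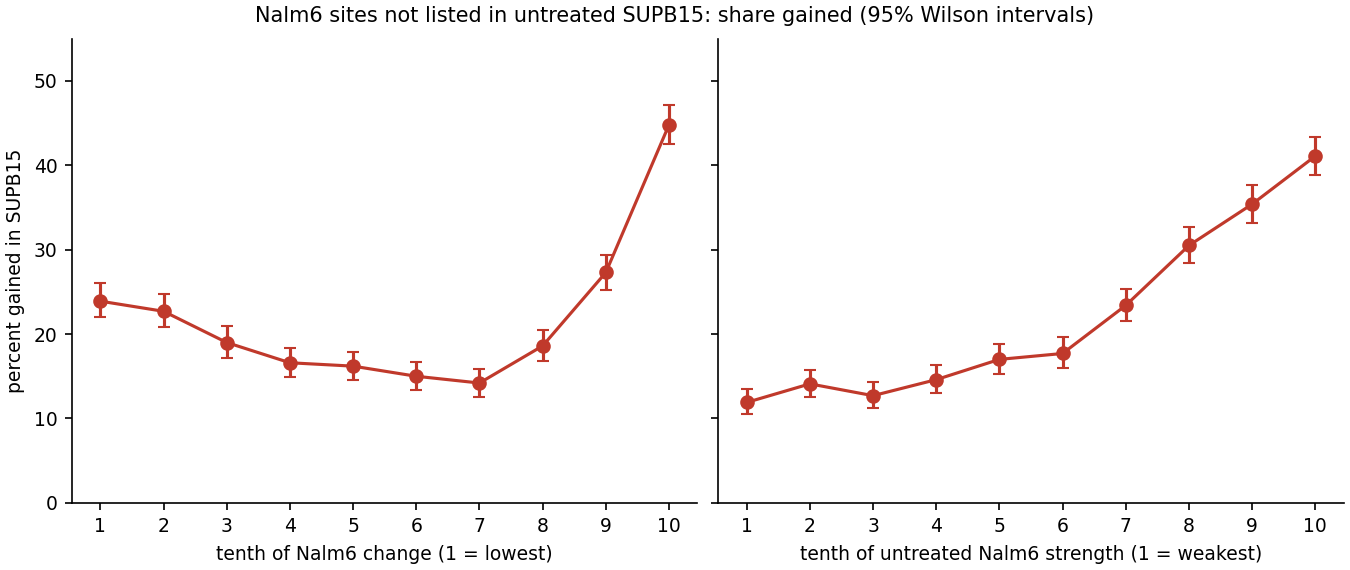
Share of the 17755 regions in all 4 Nalm6 lists and no untreated SUPB15 list that gained a SUPB15 peak (percent, with 95% Wilson intervals), in 10 bins of the Nalm6 change (left) and of the untreated Nalm6 level (right). The share is lowest, at 14.2%, in the seventh bin of the change and 44.8% in the highest, and goes from 11.9% to 41.1% across the level bins.

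The position of the summit was compared between lines, since the rule asks only that peaks overlap through a merged region. The median distance between the summits of the first treated library of each line was 89 bp at the 3871 sites, and 34.6% were within 50 bp. It was 42 bp at the 1247 sites that rose in Nalm6 (57.3% within 50 bp), 128 bp at those without a call (24.0%) and 140 bp at the lower sites (22.2%). Where all 8 lists had a peak it was 44 bp (53.6%). The other library pairs between lines gave 40 to 42 bp at sites that rose, 119 to 120 bp at those without a call and 156 to 171 bp at lower sites. The sites that rose in Nalm6 therefore had summits as close between the lines as regions bound in every library did.

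Replicates of 1 line set the scale for these distances. Between both treated SUPB15 libraries the median was 33 bp at sites that rose, 99 bp at sites without a call and 173 bp at lower sites. Between both treated Nalm6 libraries it was 22, 62 and 63.5 bp in that order. In treated cells, summits of replicates thus lay closest at sites that rose. Between both untreated Nalm6 libraries the order was another one, with 37 bp at lower sites, 45 bp at sites that rose and 72 bp at sites without a call. Peak strength also differs among the classes, and its part in the distances was not tested.

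**Figure D5:**
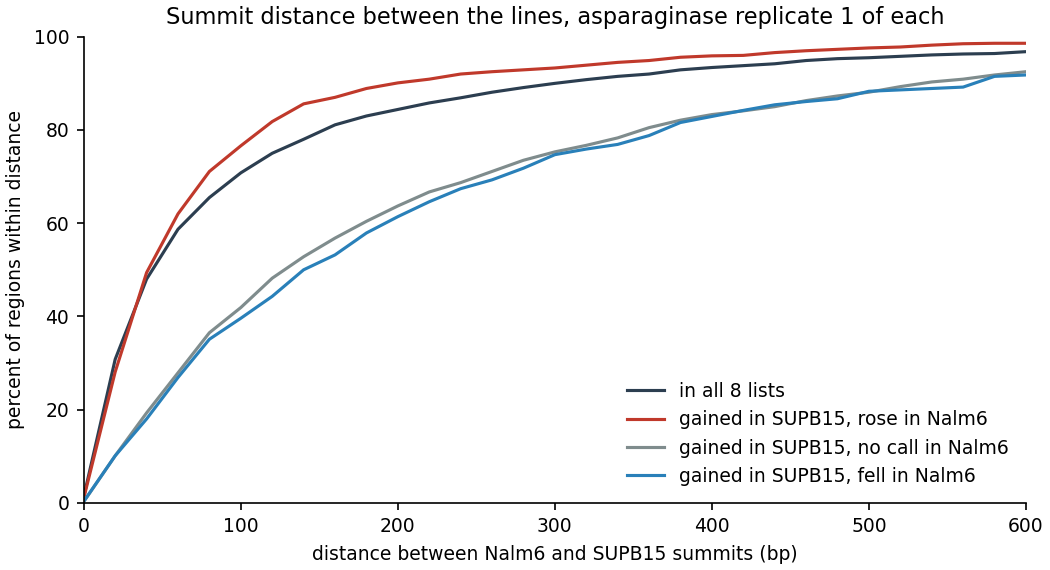
Cumulative share of sites (percent) by the distance in bp between the summits of the first asparaginase libraries of Nalm6 and SUPB15, by class. The curve of sites that rose in Nalm6, with 57.3% within 50 bp, runs near that of regions in all 8 lists (53.6%), and those of the other sites lie lower (24.0% and 22.2%).

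Since a list holds only called peaks, a site absent from the untreated SUPB15 lists may still have had some signal. For each site the mean of both treated SUPB15 levels was set against a listing limit. That limit is the lowest level at which an untreated list would have held a peak at the same relative local background. The higher limit of both untreated lists was used. The ratio had a median of 1.44 (5th to 95th percentile 1.12 to 2.67), and it exceeded 1 at 3867 sites (99.9%) and reached 2 at 634 (16.4%). At sites that rose in Nalm6 the median was 1.86 and 519 of 1247 (41.6%) reached 2, while at sites without a call it was 1.35 and 112 of 2308 (4.85%) did. At lower sites it was 1.3 and 3 of 316 (0.949%) did. The ratio is the smallest rise of the mean treated level, over the higher limit, that absence from the untreated lists allows. For most sites without a Nalm6 call that smallest rise was under 2-fold. It takes the relative local background of the treated lists as that of the untreated ones. At regions in all 8 lists, median local over genome background was 2.23 and 1.85 in treated SUPB15, and 1.68 and 1.61 in untreated SUPB15. Where all 8 lists had a peak, the measured ratio of mean treated to mean untreated SUPB15 levels had a median of 1.51 (0.957 to 3.51).

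At the edge of the rule, just inside, chrX:153247080-153247675 (hg19, as are all positions here) had treated SUPB15 levels of 6.44 and 3.56 with no untreated peak, chr11:58873776-58874969 had 7.16 and 3.82, and chr2:37899136-37899811 had 6.68 and 4.58. Just outside, chr14:90797810-90798926 had treated levels of 5.25 and 5.09 and an untreated peak of level 4.10 in replicate 2. Also outside were chr11:78285229-78286184, with treated levels of 6.92 and 6.11 and 4.41 in untreated replicate 1, and chr8:125383643-125385541, with 9.31 and 6.87 and 5.39 in untreated replicate 2. The sites just inside were picked by their weakest treated SUPB15 peak and those just outside by their untreated one, so their levels are not compared.

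The 10 sites with the highest lower fold enrichment of both treated SUPB15 lists all rose in Nalm6 as well. The first was chr2:58742899-58743775, with levels of 8.41 and 7.89 in untreated Nalm6, 29.9 and 29.6 in treated Nalm6, and 16.2 and 13.2 in treated SUPB15. Its Nalm6 change was 1.46 on the log2 scale (SE 0.22, limma adjusted p = 7.62e-10), and the Nalm6 groups did not overlap. The summits of its 4 treated libraries lay within 71 bp.

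Other sites of this group had a similar Nalm6 course at different levels. At chr14:75914662-75915325 the untreated Nalm6 levels of 7.40 and 11.1 stood against 45.7 and 58.3 with the drug, with 16.0 and 13.0 in treated SUPB15. Its change of 2.10 was the largest of the 10 (SE 0.20, limma adjusted p = 8.82e-21), and its 4 treated summits lay within 18 bp. At chr7:44013489-44014024 the levels were 11.8 and 8.96, then 21.7 and 22.3, and SUPB15 reached 23.9 and 15.8. That site had the smallest change of the 10, 0.71 (SE 0.22, limma adjusted p = 5.90e-03), and its 4 treated summits lay within 3 bp. Without untreated replicate 2 its change was 0.43 and no longer passed (limma adjusted p = 0.186), nor did it without either treated replicate.

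At chr20:9373755-9374363 the treated SUPB15 levels, 17.9 and 14.8, were about those of treated Nalm6, 14.9 and 14.6, and the untreated Nalm6 levels were 5.72 and 6.81. Its change was 0.84 (limma adjusted p = 0.00231), and it did not pass without treated replicate 1 (0.77, adjusted p = 0.0577). At chr14:68868019-68869169 the Nalm6 levels were 17.2 and 20.8, then 47.6 and 52.3, with 16.7 and 14.0 in SUPB15, and the 4 treated summits spread over 515 bp. That spread was the widest among the 10, the others lying within 71 bp. The remaining 5, chr7:87833759-87834623, chr6:84636974-84637729, chrX:11455484-11456487, chr1:115123944-115125015 and chr4:169332526-169333330, rose in Nalm6 by 1.06 to 1.85.

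Of the 5 sites most strongly enriched throughout Nalm6, 4 had SUPB15 levels below the medians of the 3871 sites. At chr19:966460-967309 the Nalm6 levels were 45.8 and 57.7 untreated and 119 and 127 treated, while treated SUPB15 had 7.16 and 6.11. At chr3:123711773-123712901 they were 41.7 and 53.8, then 111 and 124, with 7.16 and 6.37 in SUPB15. At chr10:99320553-99321466 they were 36.0 and 44.5, then 119 and 107, with 6.68 and 6.37. Their changes in Nalm6 were 0.89, 0.94 and 1.13 (limma adjusted p = 1.26e-06, 3.40e-07 and 1.00e-09). Measured by fold enrichment over local background, the first pair changed by −0.04 and −0.05 and was not called (limma adjusted p = 0.710 and 0.735), and the third by 0.22 (0.0663).

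The other pair of this group went separate ways. At chr19:13933116-13933918 the Nalm6 levels were 32.0 and 44.5, then 75.2 and 85.4, and SUPB15 reached 24.1 and 15.3, the highest replicate 1 level among the sites named. Its change of 0.72 (limma adjusted p = 0.00024) was 0.11 and not called with fold enrichment (adjusted p = 0.373), and was not called without either treated replicate. At chr11:64794662-64795590 the Nalm6 levels were 83.8 and 85.0 untreated and 73.4 and 84.1 treated, and SUPB15 had 6.20 and 5.86. It had the highest basal level of the sites named, and relative to the median region its change was −0.47 (SE 0.16, limma adjusted p = 0.0193). Without centring the change was −0.10 and was not called (limma adjusted p = 0.680), and neither was it with fold enrichment, without the trend or without either treated replicate.

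The largest increases in Nalm6 started from low basal levels. At chr3:57703635-57704487 the untreated levels were 6.73 and 5.74 and the treated ones 57.5 and 59.6, a change of 2.80 (SE 0.20, limma adjusted p = 6.72e-31), yet SUPB15 reached only 6.68 and 6.87. At chr2:177633544-177634247 they were 9.09 and 8.25, then 63.9 and 68.6, with 9.78 and 5.86 in SUPB15. At chr5:132551418-132552198 they were 8.08 and 7.53, then 55.3 and 60.9, with 20.8 and 12.0. The treated SUPB15 level among the 5 largest increases thus ran from near the median of the sites to well above it.

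The remaining pair, chr12:1047630-1048600 and chr5:79265372-79266098, both changed by 2.46 in Nalm6. Their treated SUPB15 levels were 14.3 and 10.4 at the first and 17.2 and 15.3 at the second. At all 5 sites the summits of the 4 treated libraries lay within 60 bp. Measured by fold enrichment over local background, the changes of these 5 were smaller, at 1.13 to 1.75, and still called.

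At the 5 largest decreases the treated Nalm6 levels were below the untreated ones with no overlap, also without centring. These sites were picked by that same change, so the order is no separate result. At chr22:21995859-21997493 the untreated levels were 19.5 and 22.6 and the treated ones 14.9 and 11.2, a centred change of −1.04 (SE 0.21, limma adjusted p = 1.27e-05), and SUPB15 had 8.35 and 6.37. At chr1:249152207-249153713 they were 32.0 and 27.6, then 20.8 and 19.7, with 12.6 and 9.93 in SUPB15. Its SUPB15 levels were the highest of the 5, but not its fold enrichments over local background, which were 3.11 and 2.78. The others, chr2:25895800-25896972, chr1:192777448-192778596 and chr12:42631124-42632525, changed by −0.99, −0.92 and −0.91 and had treated SUPB15 levels of 5.25 to 6.92.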

How the data were processed

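ATF4 peak lists of 8 libraries were used, 1 list per library, grouped by the cell line and treatment in the titles, which also number the replicates. BWA, MACS2, DiffBind and hg19 are named in the submitters' processing notes, and how each was set is not given in the sources used here. Each deposited list gives, per peak, a fold enrichment at the summit, a ratio computed by the authors' peak caller, and deposited −log10 p and −log10 q values, the lowest −log10 q being 1.31 to 1.63.

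The lists hold no read totals. MACS2 defines its fold as pileup plus 1 over local background plus 1 and its p from a Poisson distribution, so each pair of values was solved for the summit pileup and background, which succeeded for 100% of peaks (tolerance 0.001 in −log10 p). The lowest background of a list served as genome background and as relative depth. No label tells whether a control library was used, and copy number was not measured.

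Levels in Nalm6 were compared with limma 3.58.1 in R 4.3.3 (trend, Benjamini-Hochberg adjustment), and tables were made with Python 3.11.15, pandas 2.3.3 and scipy 1.17.1. The scripts were tested on simulated data. Sites named were the 10 highest by the lower SUPB15 fold, the 5 highest by the lowest Nalm6 fold, the 5 largest called increases and decreases, and 3 on each side of the rule. The sites and tests were chosen with earlier results of these data known. The counts by Nalm6 call and by bin, the summit distances and the listing limit were added with the lists in view. No gene names, promoter or element shares and no sequences are given, since a genome or annotation of hg19 was not used here. Alternatives covered q and p thresholds, list length, overlap, scaling, a pileup minimum, the trend, a replicate block and left-out libraries.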

Additional observations from a re-analysis of the deposited data

Results flagged for a closer look

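Both asparaginase libraries of Nalm6 lay below both untreated ones at 245 of the 3871 sites (6.33%), against 6.46% of all 25184 regions. This held at the 5 sites with the largest decreases, which were picked by that change. There, as at every site of the pattern, both asparaginase libraries of SUPB15, and neither untreated one, had a peak. The changes in Nalm6 without centring were −0.68 at chr22:21995859-21997493, −0.62 at chr2:25895800-25896972, −0.56 at chr1:192777448-192778596, −0.54 at chr12:42631124-42632525 and −0.54 at chr1:249152207-249153713 on the log2 scale. Over the 316 lower sites, the treated SUPB15 level was a median of 1.3 times the untreated listing limit, and 3 (0.949%) reached 2. Whether the lines moved in opposite directions was not tested, and the SUPB15 gain is part of how the sites were chosen.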

How the results depend on the processing

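Against 3871 regions, the pattern held 1269 with a −log10 q of at least 10 in every list, 208 with equal list lengths and 1276 where each peak had to cover 50% of the region; these counts can include regions that are not among the 3871. Leaving out 1 library gave 3868 to 7853, the highest without SUPB15 asparaginase replicate 2. Not centred, 13 sites and 100 of all regions were lower and 9762 of all regions higher, the median change of the sites was 0.48, and the difference in the share gaining a SUPB15 peak was 8.71 points. With fold enrichment 140 sites and 1030 of all regions were lower. With the replicate number as a block 535 sites and 3610 of all regions were lower, and 1377 sites were higher; same-numbered Nalm6 libraries did not deviate together (r = 0.03 over 25184 regions), so the numbers were not taken as pairs. Leaving out 1 Nalm6 library gave 83 to 231 lower sites (581 to 1541 of all regions), 930 to 1174 higher sites (4090 to 5335 of all regions) and a median change of 0.10 to 0.12, and leaving out 1 library of either line a difference of 14.2 to 24.0 points. For the 25 sites named by rank, 210 of 225 values kept direction and call, 13 lost the call, and 2 reversed: with fold enrichment, chr19:966460-967309 was at −0.04 and chr3:123711773-123712901 at −0.05. The planned shares of promoters and binding elements were not run, since no genome of hg19 was used here. With 2 libraries a group, depth known only relative to background and lists that hold called peaks only, signal below the listing limit was not measured; causes of these shifts were not tested.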
